A study of Mus musculus with 80 samples.

Results

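Nuclear factor kappa B (NF-kB) is read here through 10 genes, chosen by name. The subunit genes are *Nfkb1*, *Nfkb2*, *Rel*, *Rela* and *Relb*. Those of the inhibitor (IkB) family are *Nfkbia*, *Nfkbiz*, *Nfkbid* and *Nfkbie*, and the last is *Tnfaip3*. All 10 are among the 15919 genes of the sort comparison and among the 16000 genes of the cell preparation comparison. Both comparisons used brains of Cx3cr1-NuTRAP mice (genotype Cx3cr1(Jung)-cre/Ert2+;NuTRAP+), of both sexes, given tamoxifen (100 mg/kg, on 5 days) at about 3 months of age and used at 5 to 8 months. Tamoxifen activates the cre in *Cx3cr1*+ cells, which are mostly microglia in the brain but also include other macrophages, and their ribosomes then carry eGFP. RNA was sequenced from the whole lysate (Input) and from the ribosomes pulled down from the same lysate with an antibody to GFP (TRAP, translating ribosome affinity purification).

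The cell preparation comparison has 4 mice in each of 4 preparations. Tissue was homogenised directly. The Dounce preparation was dissociated mechanically at 4°C and cleared of myelin on Percoll. Cell (-) Inhibitors and Cell (+) Inhibitors were papain suspensions held at 37°C for 30 min, the second with actinomycin D (5 µg/ml) and triptolide (10 µM), which block transcription, and anisomycin (10 µg/ml), which blocks translation. The sort comparison has Tissue, the unsorted papain suspension without inhibitors (Cell), and cells sorted from such suspensions of other mice on CD11b magnetic beads (autoMACS), by cartridge (Tyto), by both in turn (autoMACS to Tyto) or by cytometer (FACSAria), in groups of 3 to 5 mice. All mice of both comparisons carry the transgenes and received tamoxifen. The Tissue mice are the same animals in both comparisons, so the 2 comparisons with Tissue are not independent of each other, and the Cell libraries of the sort comparison came from those 4 mice too. The suspensions with and without inhibitors came from the same 4 mice, which are not the Tissue mice. Dounce came from other mice than these. Preparation and mice therefore cannot be told apart in the preparation comparison, except between the 2 suspensions.

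NF-kB transcription factors are pairs of subunits, of which *Rela*, *Rel* and *Relb* encode those with an activating domain and *Nfkb1* and *Nfkb2* encode precursors of the p50 and p52 partners. The classical inhibitor encoded by *Nfkbia* (IkB-alpha) holds the pair in the cytoplasm until the IkB kinase marks it for destruction. Freed NF-kB then switches on cytokine genes and also its own brakes, *Nfkbia* and *Tnfaip3* among them, in microglia as in other macrophages. *Nfkbiz* and *Nfkbid* encode nuclear IkB proteins that are made on stimulation and tune part of the target genes, *Nfkbie* encodes a further cytoplasmic inhibitor, and *Tnfaip3* encodes A20, a ubiquitin-editing enzyme that quiets signalling above the kinase.

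Sequences are shown for promoters of members that fell with the mix of the 3 inhibitors in the results below. They are set beside promoters of 2 subunit genes that did not pass the test there. RefSeq promoter windows (GRCm38.p6, 300 bases, of which 250 lie before the start) were found for 7 of the 10 members, in 12 windows. The 250 bases before the start are printed 5′ to 3′ on the strand of the gene, in lower case, with each match to the 10-letter kappaB consensus, on either strand, in capitals. 
Nfkbia, chr12:55492648-55492897, minus strand: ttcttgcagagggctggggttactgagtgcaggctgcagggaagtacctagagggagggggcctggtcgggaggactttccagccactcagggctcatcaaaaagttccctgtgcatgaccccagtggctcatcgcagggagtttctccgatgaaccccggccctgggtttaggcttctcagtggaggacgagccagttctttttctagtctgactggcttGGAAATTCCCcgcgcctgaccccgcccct
Nfkbid, second start, chr7:30422156-30422405, plus strand: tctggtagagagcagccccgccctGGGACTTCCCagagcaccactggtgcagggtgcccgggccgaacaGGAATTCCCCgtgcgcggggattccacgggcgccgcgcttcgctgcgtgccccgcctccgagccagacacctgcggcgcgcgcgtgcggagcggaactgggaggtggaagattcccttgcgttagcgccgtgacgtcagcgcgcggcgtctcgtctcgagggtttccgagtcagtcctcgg
Tnfaip3, first start, chr10:19015411-19015660, minus strand: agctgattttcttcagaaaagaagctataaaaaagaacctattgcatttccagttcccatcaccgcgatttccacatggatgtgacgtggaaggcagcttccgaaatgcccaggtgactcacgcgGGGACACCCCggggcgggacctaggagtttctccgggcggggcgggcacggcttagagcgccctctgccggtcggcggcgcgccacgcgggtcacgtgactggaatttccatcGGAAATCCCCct
Nfkb2, first start, chr19:46304487-46304736, plus strand: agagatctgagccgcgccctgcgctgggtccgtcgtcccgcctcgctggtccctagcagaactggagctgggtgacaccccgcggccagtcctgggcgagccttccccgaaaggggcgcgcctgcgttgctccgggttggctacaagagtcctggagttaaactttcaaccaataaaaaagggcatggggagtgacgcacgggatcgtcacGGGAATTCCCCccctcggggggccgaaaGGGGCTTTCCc
Rel, chr11:23770970-23771219, minus strand: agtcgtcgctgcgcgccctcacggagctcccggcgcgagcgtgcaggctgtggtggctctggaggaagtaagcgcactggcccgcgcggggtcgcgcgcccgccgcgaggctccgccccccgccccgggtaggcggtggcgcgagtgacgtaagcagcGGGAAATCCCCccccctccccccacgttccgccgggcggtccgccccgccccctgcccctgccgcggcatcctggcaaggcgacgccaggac
In the windows printed, *Nfkbia* has 1 match, *Nfkbid* and *Tnfaip3* have 2 each, *Nfkb2* has 3 and *Rel* has 2. Of these, 2 matches of *Nfkb2* and both of *Rel* overlap by all but 1 base. The windows not printed of *Nfkbid* (starts 1 and 3) and *Tnfaip3* (start 2) hold 0 matches, and those of *Nfkb2* (starts 2 and 3) hold 2 and 1. For *Nfkbid*, the window of start 3 is the one that holds the listed start of the gene (chr7:30423304). *Nfkbie* has 1 match and *Rela* has none in its window. Among 32851 windows of the same length, 8.5% hold at least 1 match and 1.22% at least 2, against 8 of the 12 windows of the members. A pair of windows of *Nfkb2* overlap and share 1 of their matches. Genes whose windows hold a match are found both among the members that passed the test with the inhibitors and among those that did not. A match is a run of letters, not a measured binding site.

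Depth is the sum of the counts in a library over the listed genes. It ran from 7129464 to 20168116 in the sort comparison and from 2471448 to 14650287 in the preparation comparison, where the Dounce-TRAP libraries were shallowest (2471448 to 4724538). The authors report the lowest RNA integrity for Dounce-Input and the use of a whole brain for it. They also report coverage more biased to the 3′ end in Tissue and Dounce than in the suspensions of the preparation comparison. The part of this in the comparisons below was not tested. Levels below are CPM, the counts per 1000000 counts of the library. They were scaled by the trimmed mean of M values (TMM) within the TRAP or the Input libraries of a comparison. Levels of cell type markers and their sums were not scaled so, and are CPM of the library total. A gene was called when its false discovery rate (FDR, Benjamini-Hochberg over all genes tested, quasi-likelihood test of edgeR) was below 0.1 and it changed by more than 2-fold. Summed over 15 microglial marker genes, the level was 533 to 577 CPM in Tissue-Input, 12630 to 14440 in Tissue-TRAP and 49740 to 57980 in the TRAP libraries of the 3 cell preparations. The 7 neuronal markers summed to 6411 to 7334 CPM in Tissue-TRAP, 1020 to 1896 in Dounce-TRAP and 45.8 to 171 in the TRAP of both suspensions. Fewer cells of a type and less RNA per cell cannot be told apart in such bulk libraries. Changes against Tissue were therefore also computed with libraries scaled to equal levels of the 15 microglial markers, called the microglial scale below, which moved the median of all genes by -2.05 to -2.28 (log2) against Tissue-TRAP in the preparation comparison.

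The inhibitors asked which transcripts differ in level when transcription and translation are blocked during the warm dissociation. With inhibitors, 4 of the 10 members fell in TRAP: the IkB genes *Nfkbia*, *Nfkbiz* and *Nfkbid*, and *Tnfaip3*. The other members, which include all 5 subunit genes and *Nfkbie*, did not pass the test. Of all genes tested, 0.632% were called lower in this comparison (edgeR), beside 4 of the 10 members. The groups of 5 members, these 4 and *Rel*, did not overlap, beside 12.6% of all genes.

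*Nfkbia* (chr12:55489409-55492647 of mm10, minus strand), the classical cytoplasmic inhibitor, stood at 505, 566, 707 and 863 CPM in Cell-TRAP (-) Inhibitors and at 141, 137, 123 and 154 CPM in Cell-TRAP (+) Inhibitors. The groups did not overlap. The log2 fold change was -2.25 ± 0.18 (SE, FDR = 9.77e-08, edgeR quasi-likelihood test), with a 95% confidence interval of -2.62 to -1.88.

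*Nfkbiz* (chr16:55811377-55838641, minus strand), a nuclear IkB, stood at 237, 200.1, 423 and 638 CPM without inhibitors and at 17.98, 15.3, 15.6 and 20.02 CPM with them in TRAP. Every library without inhibitors was above every library with them. The log2 fold change was -4.44 ± 0.34 (SE, FDR = 8.61e-08, edgeR quasi-likelihood test).

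*Nfkbid* (chr7:30423304-30428746, plus strand), the other nuclear IkB, was measured at 103, 65.1, 148 and 266 CPM without and at 6.90, 5.43, 8.23 and 7.25 CPM with inhibitors in TRAP. The groups did not overlap, and the spread was wider without inhibitors than with them, as it was for *Nfkbiz*. The log2 fold change was -4.38 ± 0.36 (SE, FDR = 1.69e-07, edgeR quasi-likelihood test).

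*Tnfaip3* (chr10:19000910-19015410, minus strand), which encodes A20, was measured at 294, 315, 440.4 and 631 CPM without and at 67.8, 69.6, 63.7 and 61.6 CPM with inhibitors in TRAP. The 4 libraries with inhibitors lay within a narrow band well below the others. The log2 fold change was -2.68 ± 0.18 (SE, FDR = 1.11e-08, edgeR quasi-likelihood test).

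Within single mice, the suspension without inhibitors held 3.58 to 5.75 times as much *Nfkbia* as that with inhibitors in TRAP, 13.1 to 31.9 times as much *Nfkbiz*, 12.0 to 36.7 times as much *Nfkbid* and 4.33 to 10.2 times as much *Tnfaip3*. Each was higher without inhibitors in 4 of 4 mice. On the microglial scale, which moved the median of all genes by -0.085 here, the same 4 members were called lower, and a fit with the mouse as a block called 4 members as well.

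**Figure D1:**
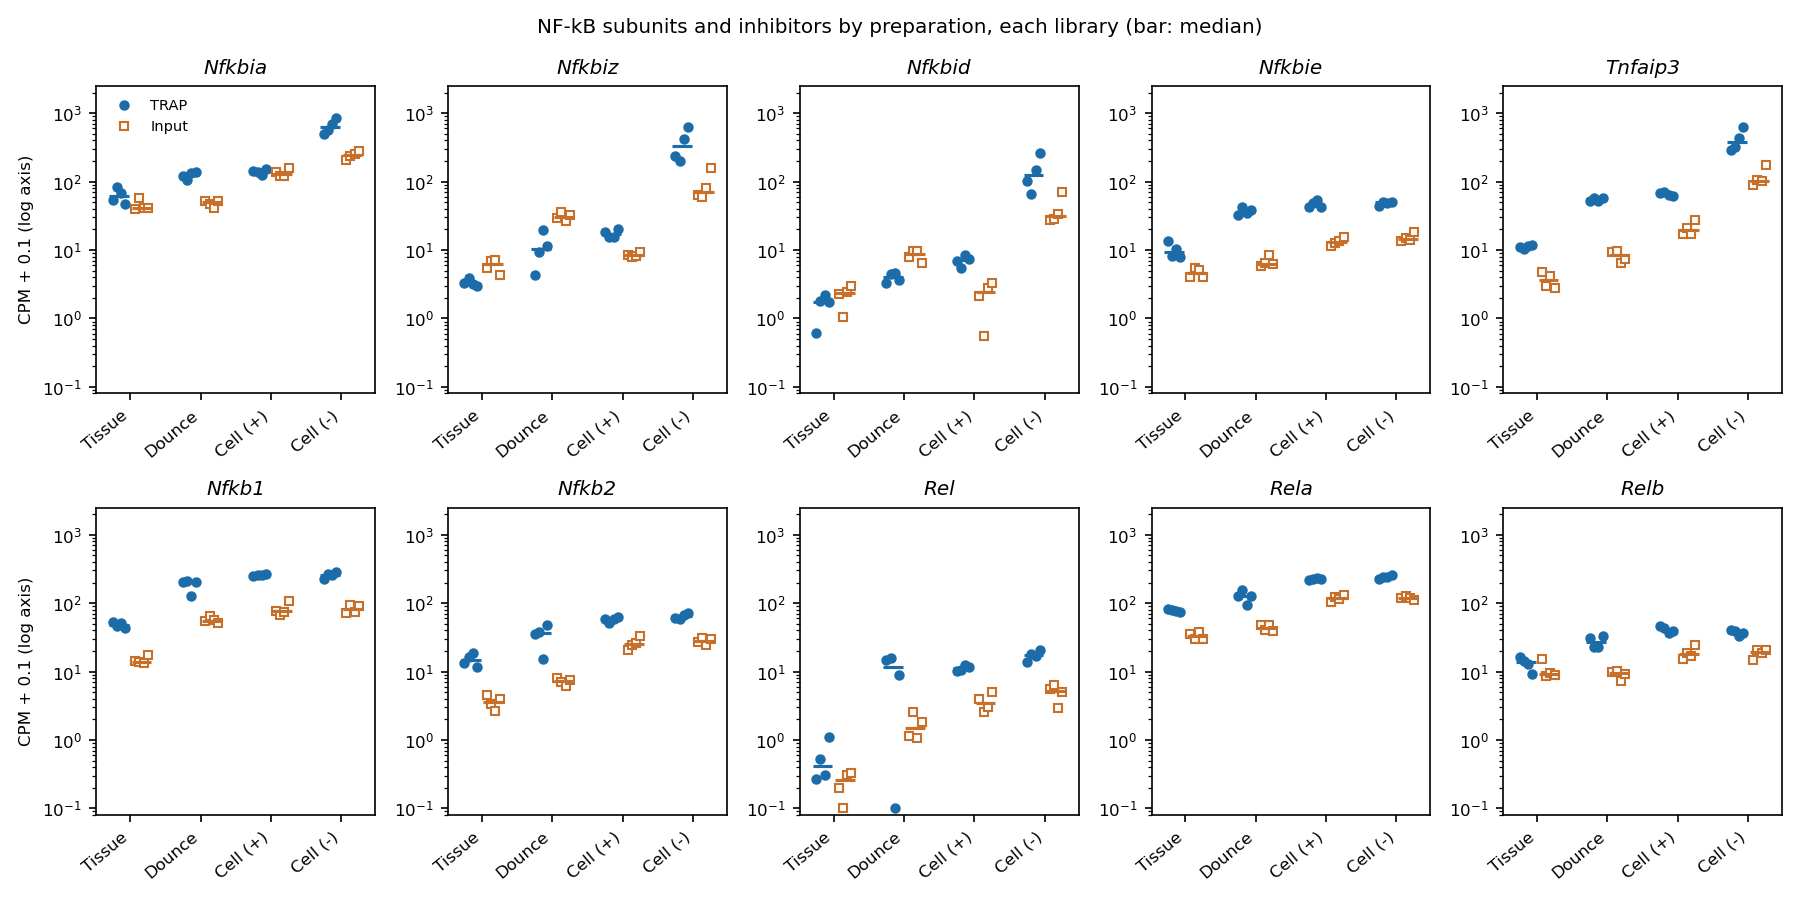
Level of each member in every library of the preparation comparison (vertical axis, CPM + 0.1, log axis), for Tissue, Dounce and the suspensions without and with inhibitors, with TRAP as filled circles, Input as open squares and bars at the medians. *Nfkbia*, *Nfkbiz*, *Nfkbid* and *Tnfaip3* lie higher without than with inhibitors in both fractions, while the subunit genes other than *Rel* overlap between the 2 suspensions in TRAP.

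*Nfkbie*, the further cytoplasmic inhibitor, was at 44.1 to 51.04 CPM without and 42 to 53.7 CPM with inhibitors in TRAP, and its groups overlapped (log2 fold change -0.06 ± 0.15, FDR = 0.988, edgeR). It is the one IkB gene among the members that did not pass the test in this comparison.

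Of the precursor genes, *Nfkb1* was at 226, 266, 258 and 284 CPM without and 249, 262, 260.2 and 269.5 CPM with inhibitors. Its log2 fold change was 0.01 with a 95% confidence interval of -0.27 to 0.29, so a 2-fold change in either direction lay outside the interval. *Nfkb2* was at 58.9 to 71.3 CPM without and 50.7 to 62.6 CPM with inhibitors (log2 fold change -0.17 ± 0.21).

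*Rela*, the main activating subunit, was at 224, 239, 243 and 253 CPM without and 216, 228, 232 and 225 CPM with inhibitors, with an interval of -0.32 to 0.14 on the log2 scale. *Relb* was at 33.3 to 39.97 CPM without and 35.9 to 46.4 CPM with inhibitors (interval -0.20 to 0.50). *Rel* was at 13.5, 17.8, 16.7 and 20.3 CPM without and 10.1, 10.49, 12.5 and 11.7 CPM with inhibitors. The groups of *Rel* did not overlap, but with a log2 fold change of -0.61 ± 0.48 (FDR = 0.867, edgeR) it did not pass the test, and its interval, from -1.62 to 0.41, includes a 2-fold fall.

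In the Input of the same suspensions, 3 members fell with inhibitors: *Nfkbid* (-4.25 ± 0.41 log2, FDR = 2.04e-06), *Nfkbiz* (-3.42 ± 0.26) and *Tnfaip3* (-2.51 ± 0.21). Of all genes tested, 0.311% were called lower (edgeR). *Nfkbiz* was at 63.1, 58.9, 79.6 and 159 CPM without and 8.48, 7.79, 8.18 and 9.11 CPM with inhibitors, and *Tnfaip3* was at 88.9, 105, 102 and 174 CPM without and 17.3, 21.1, 17 and 26.99 CPM with them. *Nfkbid* was at 27.6, 28.5, 34.01 and 71.6 CPM without and 2.03, 0.458, 2.70 and 3.24 CPM with inhibitors. None of these 3 overlapped between the suspensions, where 2.24% of all genes did not.

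*Nfkbia* in Input was at 209, 240, 257 and 279 CPM without and 137, 121, 120 and 158 CPM with inhibitors, which did not overlap. Its log2 fold change of -0.88 ± 0.13 (FDR = 0.000829) stayed under 2-fold, and on the microglial scale it was -1.04 and was called. *Rela* was at 110.0 to 125 CPM without and 104 to 130.4 CPM with inhibitors in Input, and the subunit genes all overlapped there, with an FDR of 1 each (edgeR).

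Whether the inhibitor effect was of the same size in both fractions was tested in one fit over TRAP and Input. *Nfkbia* alone differed past the threshold, with an effect more negative in TRAP by 1.38 ± 0.22 on the log2 scale (FDR = 0.000863, edgeR quasi-likelihood test), and 0.145% of all genes were called in this direction. On the microglial scale the difference was -1.30 and was called. Summed microglial markers were 9011 to 14280 CPM in Cell-Input (-) Inhibitors and 49740 to 55650 CPM in Cell-TRAP (-) Inhibitors. The part of other cells of the Input in this difference was not tested. By mouse, *Nfkbia* was 3.58 to 5.75 times higher without inhibitors in TRAP and 1.52 to 2.14 times higher in Input. For *Nfkbiz* the difference was -1.04 ± 0.43 (FDR = 0.827), and it was called only in the fit with the lysate as a block (-1.01), which called 2 members, and 42 genes in place of 23. For *Nfkbid* and *Tnfaip3* the difference was -0.15 ± 0.57 and -0.18 ± 0.27.

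**Figure D2:**
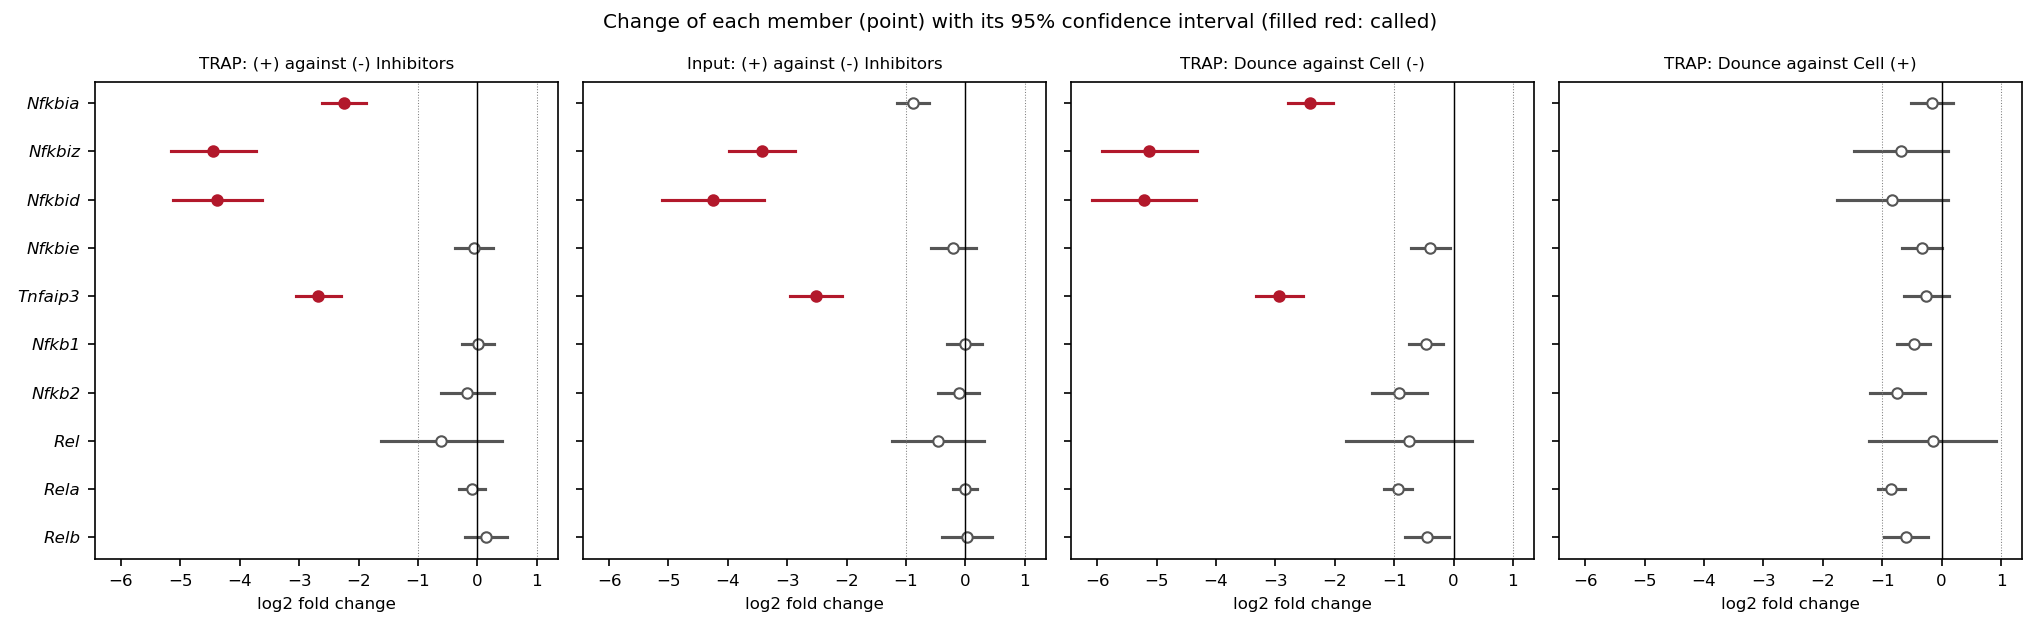
Log2 fold change of each member (points) with its 95% confidence interval (lines) for the inhibitors in TRAP and in Input, and for Dounce against each suspension in TRAP, where filled red points were called and dotted lines mark a 2-fold change. *Nfkbia*, *Nfkbiz*, *Nfkbid* and *Tnfaip3* lie far to the left for inhibitors and for Dounce against the suspension without them in TRAP, and no member was called for Dounce against the suspension with inhibitors.

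The Dounce preparation asked whether cold dissociation without enzymes leaves the same transcripts low. Its mice gave no other library, so preparation and mice cannot be told apart here. Against Cell-TRAP (-) Inhibitors, the same 4 members were lower in Dounce-TRAP: *Nfkbid* (-5.21 ± 0.42 log2), *Nfkbiz* (-5.12 ± 0.38), *Tnfaip3* (-2.93 ± 0.19) and *Nfkbia* (-2.41 ± 0.18). Of all genes tested, 8.02% were called lower here (edgeR). The comparison shares its suspension libraries with the inhibitor comparison, so the 2 lists of 4 are not independent.

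*Nfkbia* was at 121, 106, 133 and 138 CPM in Dounce-TRAP, *Tnfaip3* at 52.5, 57.5, 51.5 and 58.4 CPM, and *Nfkbid* at 3.20, 4.39, 4.48 and 3.57 CPM. *Nfkbiz* was at 4.27, 9.38, 19.8 and 11.3 CPM, which is 16 to 53 counts per library, and was the most variable of the 4. All 4 were below every library of the suspension without inhibitors. Of the 10 members, 9 had no overlap with that suspension, the exception being *Rel*, beside 41.6% of all genes, but *Rela* (-0.94 ± 0.11), *Nfkb2* (-0.91 ± 0.22), *Nfkb1* (-0.46 ± 0.13), *Relb* (-0.45 ± 0.18) and *Nfkbie* (-0.39 ± 0.16) had an FDR below 0.1 at less than 2-fold. Without 1 Dounce library, *Nfkb2* (without replicate 4) or *Rela* (without replicate 2) also passed 2-fold.

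Against Cell-TRAP (+) Inhibitors no member was called in either direction by edgeR or by DESeq2, while 29.1% of all genes were called in one direction or the other. At an unadjusted p below 0.05 there were 5 members, all lower in Dounce-TRAP: *Rela* (-0.85 ± 0.11), *Nfkb2* (-0.74 ± 0.22), *Relb* (-0.60 ± 0.18), *Nfkb1* (-0.47 ± 0.13) and, as the only inhibitor gene, *Nfkbie* (-0.33 ± 0.16). Each changed by less than 2-fold, so the call rule left it out at any FDR. The groups of 6 of the 10 members did not overlap, *Nfkbid* and *Tnfaip3* among them, both lower in Dounce-TRAP. Of all genes, 43.6% did not overlap here. The intervals of *Nfkbia* (-0.52 to 0.20) and *Tnfaip3* (-0.63 to 0.12) lay within 2-fold, those of *Nfkbiz* and *Nfkbid* reached beyond it, and *Nfkbiz* passed the call rule without Dounce-TRAP replicate 3. That library also held no count of *Rel*, which allows up to 1.21 CPM at its depth (an upper limit of 3 counts, for counting error only), beside 14.4, 15.8 and 8.93 CPM in the others, and it had the lowest *Nfkb1*, *Nfkb2* and *Rela* and the highest *Nfkbiz* of its group at the lowest depth of the comparison.

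In Input with TMM, 9 members were lower in Dounce than in Cell (-) Inhibitors, where 28.1% of all genes were, and *Nfkb1* (-0.54 ± 0.14) stayed under 2-fold, but on the microglial scale, which moved the median of all genes by 1.73, only *Tnfaip3* was called lower and *Nfkb1* was called higher. The summed microglial markers were 2691 to 4097 CPM in Dounce-Input and 9011 to 14280 CPM in Cell-Input (-) Inhibitors, and their part in these changes was not tested.

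Tissue served as the reference that had not been dissociated. Its mice gave no suspension or Dounce library of the preparation comparison, so preparation and mice cannot be told apart in these changes. Relative to Tissue-TRAP with TMM scaling, all 10 members were higher in Cell-TRAP (-) Inhibitors, all 10 in Cell-TRAP (+) Inhibitors and 8 in Dounce-TRAP, where 22.3%, 21.6% and 23.2% of all genes were called higher, but on the microglial scale these calls became 5 higher, then 1 higher and 1 lower, then 1 higher and 3 lower. The groups of all 10 members did not overlap in the first 2 comparisons, and those of 8 did not in the third, as was so for 74.7%, 75.7% and 59.5% of all genes. The 3 comparisons share the Tissue libraries. On the microglial scale 171 of 11999 genes called were higher in the first, 83 of 12192 in the second and 253 of 11510 in the third.

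*Nfkbia* was at 54.5, 83.4, 67.2 and 46.9 CPM in Tissue-TRAP and *Tnfaip3* at 11.01, 10.3, 11.4 and 11.6 CPM. *Nfkbiz* was at 3.18, 3.78, 3.04 and 2.88 CPM and *Nfkbid* at 0.516, 1.68, 2.13 and 1.62 CPM. With TMM these low levels lay below every library of either suspension, and the scale decides the direction for part of the members, as given next.

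In Cell-TRAP (-) Inhibitors the log2 fold change against Tissue-TRAP was 6.86 ± 0.40 for *Nfkbiz*, 6.62 ± 0.42 for *Nfkbid*, 5.24 ± 0.21 for *Tnfaip3* and 3.39 ± 0.18 for *Nfkbia*, and on the microglial scale it was 4.68, 4.46, 3.06 and 1.19, still called higher. *Rel* was also called on both scales (5.21 and 3.04), though its Tissue-TRAP libraries held 2 to 11 counts each. For *Nfkb1* the change was 2.43 with TMM and 0.23 on the microglial scale, for *Nfkbie* 2.29 and 0.10, and for *Nfkb2*, *Rela* and *Relb* 2.12, 1.63 and 1.51 with TMM but -0.07, -0.57 and -0.69 on the microglial scale, where none of these 5 was called.

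In Cell-TRAP (+) Inhibitors against Tissue-TRAP, *Nfkbid* was 2.24 ± 0.43 (log2) higher with TMM and -0.02 on the microglial scale, *Nfkbiz* 2.42 ± 0.38 and 0.14, and *Tnfaip3* 2.57 ± 0.19 and 0.29. *Nfkbia* was 1.14 ± 0.17 higher with TMM but lower on the microglial scale, at -1.15, where it was called. In Dounce-TRAP, *Nfkbia* was at 0.98 ± 0.18 with TMM and -1.08 on the microglial scale, *Rela* at 0.69 ± 0.11 and -1.36, and *Relb* at 1.06 ± 0.18 and -1.003, and these 3 were called lower on the microglial scale. With TMM, *Relb* passed 2-fold only narrowly and came under it without Tissue-TRAP replicate 4 (0.92) and without Dounce-TRAP replicate 1 or 4 (0.96 and 0.95).

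**Figure D3:**
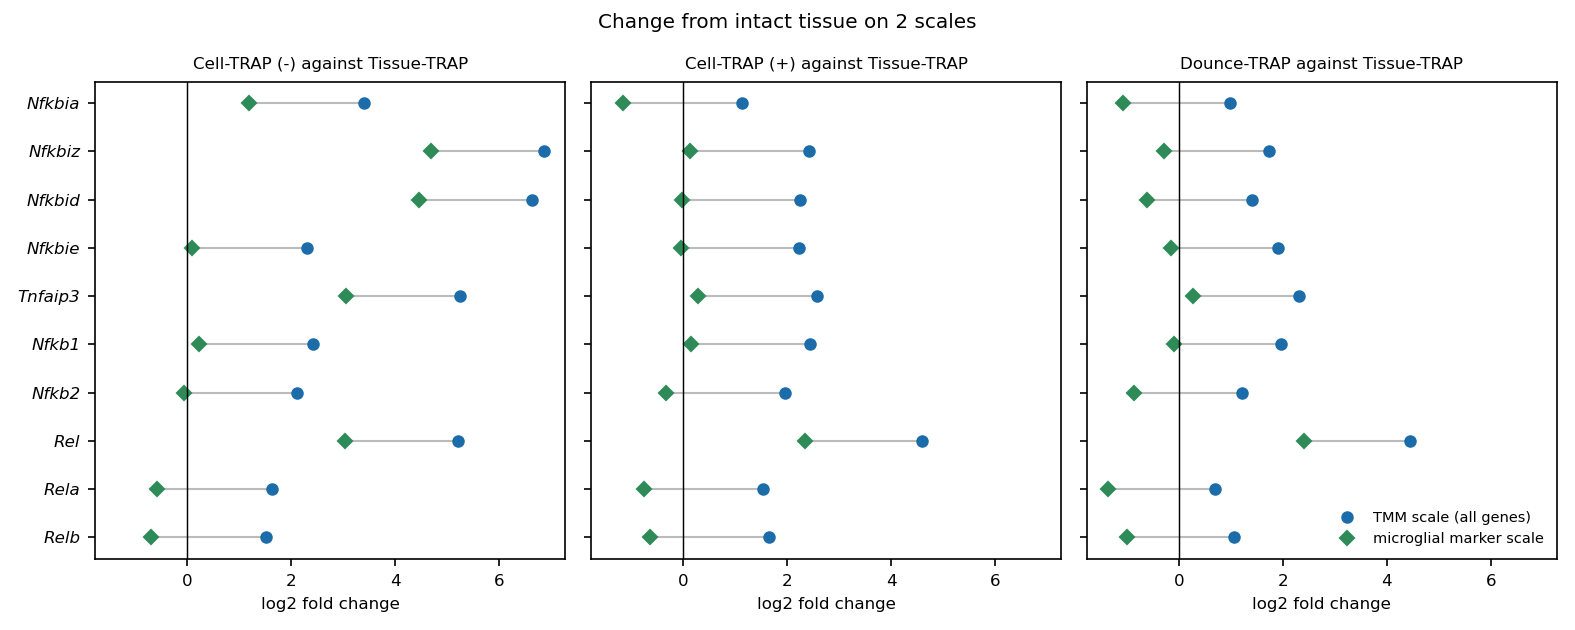
Log2 fold change of each member against Tissue-TRAP in the preparation comparison under TMM scaling and under scaling to equal microglial markers, for the suspensions without and with inhibitors and for Dounce. With TMM every member lies above 0, while on the microglial scale 3 members in the suspension without inhibitors, 6 in that with inhibitors and 8 in Dounce lie below 0.

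Relative to Tissue-Input with TMM, 9 members were higher in Cell-Input (-) Inhibitors, 7 in Cell-Input (+) Inhibitors and 6 in Dounce-Input, against 25.6%, 25.5% and 28.7% of all genes, but on the microglial scale which moved the median of all genes by -4.28, -4.42 and -2.56, no member was called higher in any of the 3 and 6, 9 and 6 were called lower. *Nfkbid* was at 2.21, 0.964, 2.32 and 2.92 CPM in Tissue-Input and at 2.03, 0.458, 2.70 and 3.24 CPM in Cell-Input (+) Inhibitors, and these groups overlapped. In Dounce-Input *Nfkbia* was at 51.96, 47.02, 41.04 and 52.3 CPM, within the range of Tissue-Input (39.99 to 57.7 CPM), with a log2 fold change of 0.10 ± 0.14 under TMM and -2.47 on the microglial scale. *Nfkbiz* was at 29.1, 36.4, 26.3 and 32.5 CPM in Dounce-Input and 4.15 to 7.05 CPM in Tissue-Input, a log2 fold change of 2.41 ± 0.28 with TMM and -0.15 on the microglial scale.

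In the sort comparison the question was whether sorting adds to what dissociation does. Of the 10 members, 9 were higher in Cell-TRAP than in Tissue-TRAP with TMM, all but *Relb* (0.80 ± 0.21 log2), where 25.1% of all genes were, but on the microglial scale 5 were higher and *Relb* was lower. *Nfkbiz* was at 2.52, 3.54, 3.09 and 2.35 CPM in Tissue-TRAP and at 603, 284, 196 and 186 CPM in Cell-TRAP, and *Tnfaip3* was at 6.27, 8.19, 9.57 and 8.21 CPM and at 343, 313, 193 and 206 CPM. Replicates 1 and 2 of Cell-TRAP held more of both than replicates 3 and 4, and the same held for *Nfkbia*. The log2 fold changes were 6.78 ± 0.44 and 5.02 ± 0.28 with TMM, 5.78 ± 0.43 for *Nfkbid* and 3.37 ± 0.22 for *Nfkbia*, and these 4 and *Rel* are the 5 members called higher on the microglial scale as well.

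The sorted libraries came from 10 mice, none of which gave a Cell library, so sorting and the mice cannot be told apart in this comparison. Several of these mice gave libraries to more than 1 sort method. The fit counted such libraries as independent, so its SE and FDR leave out this sharing. The comparison brought 1 call in TRAP, where 0.836% of all genes were called higher. Over the 4 sorted groups, *Relb* was 1.05 ± 0.17 (log2) higher than in Cell-TRAP. *Relb* lay at 14.8, 15.6, 21.6 and 17.6 CPM in Cell-TRAP and at 20.7 to 47.7 CPM over the sorted libraries. These ranges overlapped, and the change came under 2-fold without Cell-TRAP replicate 1 (0.99), on the microglial scale (0.79), which moved the median of all genes by -0.27, and with a filter of 10 counts in every sample (0.99). Markers of astrocytes, neurons, oligodendrocytes and endothelial cells were lower after sorting in TRAP (for instance *Gja1*, -7.34, and *Cldn5*, -6.25), and their part in the *Relb* change was not tested.

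No IkB gene passed the call rule after sorting, nor did *Tnfaip3*. *Nfkbia* was at 698, 681, 435 and 433 CPM in Cell-TRAP, and at 689.8 to 819.5 CPM (autoMACS), 514 to 578 CPM (autoMACS to Tyto), 498 to 703 CPM (Tyto) and 478 to 996 CPM (FACSAria) after sorting. The sorted groups against Cell-TRAP gave 0.17 ± 0.16 (log2) for *Nfkbia*, 0.32 ± 0.25 for *Nfkbiz*, 0.46 ± 0.24 for *Nfkbid* and 0.77 ± 0.19 for *Tnfaip3*, of which *Tnfaip3* had an FDR of 0.00114 below 2-fold. *Nfkbiz* lay between 249 and 793 CPM over the sorted TRAP libraries, *Nfkbid* between 78.4 and 268 CPM and *Tnfaip3* between 328 and 835 CPM. For each of the 3 the highest library was FACSAria-TRAP replicate 1, which also had the highest *Nfkbia*. All 10 members overlapped between Cell-TRAP and the pooled sorted libraries, where 24.4% of all genes did not overlap. By method, 3 members lay outside the range of Cell-TRAP in autoMACS, 4 in autoMACS to Tyto, 2 in Tyto and 6 in FACSAria, *Tnfaip3* in autoMACS and FACSAria and *Rel* in all but autoMACS among them. The share of all genes was not computed by method, so these counts cannot be set against it and are no result about the members.

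**Figure D4:**
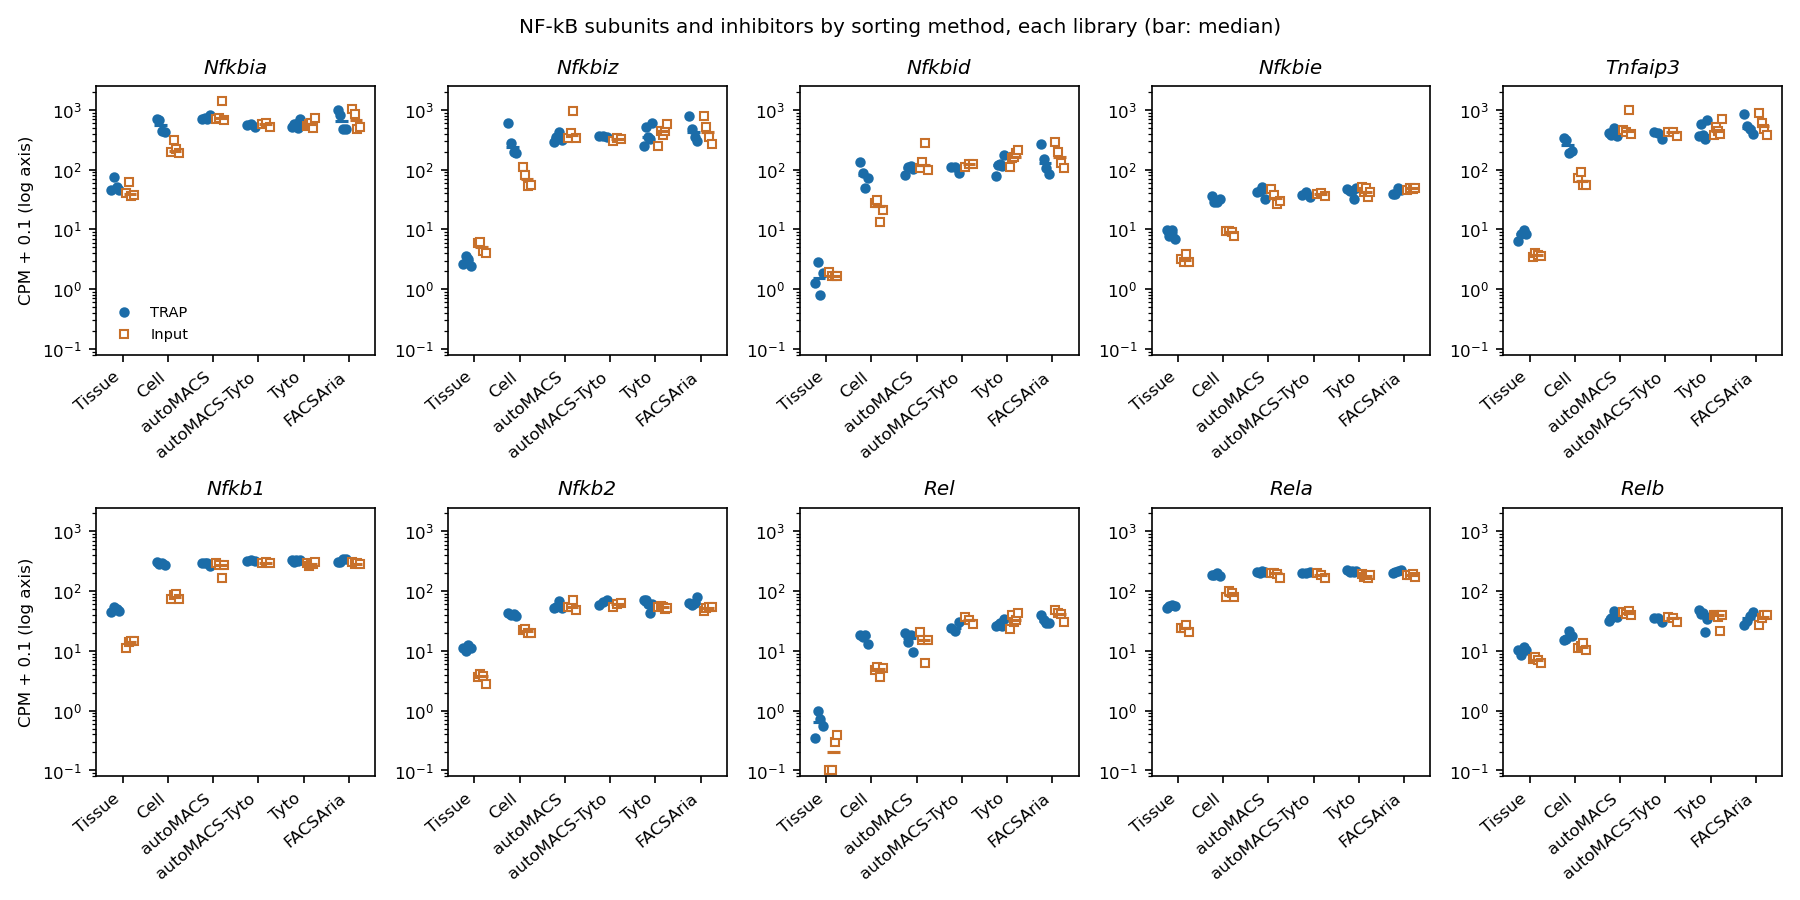
Level of each member in every library of the sort comparison (vertical axis, CPM + 0.1, log axis), by preparation and sort method, with TRAP as filled circles, Input as open squares and bars at the medians. In TRAP the range of the unsorted suspension overlaps the pooled range of the sorted libraries for every member, though not that of each single sort method, and in Input every member lies higher in the sorted groups than in the unsorted suspension with TMM scaling, while on the microglial scale 8 of 10 members have the other sign there.

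Among the 4 sort methods 1 member differed in TRAP, *Rel*, where 4.17% of all genes did (F test of edgeR, largest fold between methods above 2). *Rel* was at 19.9, 13.9, 18.5 and 9.43 CPM in autoMACS-TRAP and at 39.2, 33.04, 28.8 and 29.3 CPM in FACSAria-TRAP, with no overlap. The largest difference between methods was 1.08 (log2, FDR = 0.000903, edgeR), and it came under 2-fold without autoMACS-TRAP replicate 4 or without FACSAria-TRAP replicate 1. In Input *Rel* was again the 1 member called, with a largest difference of 1.49 (FDR = 0.00701, edgeR), against 7.42% of all genes, and its autoMACS-Input libraries lay at 20.6, 15.0, 6.26 and 15.2 CPM. Tyto and FACSAria were run on some of the same mice, as were autoMACS and autoMACS to Tyto, and the sort methods differ in mice otherwise. The F test counted libraries of a shared mouse as independent.

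In Input, 9 members were higher in Cell-Input than in Tissue-Input with TMM, where 28.5% of all genes were, and 10 were higher in the sorted groups than in Cell-Input, where 17.1% were, but on the microglial scale 1 was higher and 6 were lower in the first comparison and 3 were lower in the second. Groups of all 10 members did not overlap in either, nor did those of 75.4% and 56.8% of all genes. Summed microglial markers were higher along the same steps, from 530.3 to 799.5 CPM in Tissue-Input to 8872 to 11050 CPM in Cell-Input and 32850 to 53430 CPM in the sorted Input libraries.

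The lowest of these sums, 32850 CPM, belongs to autoMACS-Input replicate 3, whose depth was also the lowest of the sort comparison. This library had the highest *Nfkbia* (1410 CPM), *Nfkbiz* (951 CPM) and *Tnfaip3* (974 CPM) of its group and the lowest *Nfkb1* (163 CPM) and *Rel* (6.26 CPM). *Nfkbid* was highest there too (276 CPM). The other 3 libraries of the group held 668 to 726 CPM of *Nfkbia*. The TRAP library labelled as of the same lysate held 689.8 CPM of *Nfkbia*, the lowest of its group, and the deviations of these 2 libraries from their group means correlated at -0.152 over genes.

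TRAP against Input of the same lysates shows how far each transcript is found on tagged ribosomes relative to all RNA, and these folds come from one fit over both fractions. With TMM, 6 members were higher in TRAP than in Input in Tissue, 9 in Cell, 10 in Cell (-) Inhibitors, 8 in Cell (+) Inhibitors and 8 in Dounce, against 9.23%, 16.8%, 10.6%, 9.71% and 20.8% of all genes, but on the microglial scale no member was called higher in any of them and 10, 4, 3, 5 and 10 were called lower. In the sorted cells no member was called by edgeR or DESeq2, where 18.9% of all genes were called in one direction or the other, and 3 members had an unadjusted p below 0.05: *Rela* (0.26 ± 0.04), *Nfkb1* (0.24 ± 0.05) and *Nfkb2* (0.24 ± 0.06), all higher in TRAP with TMM. These 3 changed by less than 2-fold, so the call rule left them out at any FDR.

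*Nfkb1* was 2.04 ± 0.10 (log2) higher in TRAP of Tissue with TMM and -2.46 on the microglial scale, while *Nfkbiz* was at -0.60 ± 0.47 (FDR = 0.405, edgeR) in Tissue. *Nfkbia* was 1.46 ± 0.16 higher in TRAP than in Input without inhibitors and 0.07 ± 0.16 with inhibitors under TMM, and it was -0.87 and -2.16 on the microglial scale.

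In Dounce *Nfkbiz* was lower in TRAP than in Input, by the log2 fold change -1.17 ± 0.36 (FDR = 0.00481, edgeR), where 26.7% of all genes were called lower. On the scale of the joint fit, *Nfkbiz* was at 4.46, 9.89, 20.6 and 11.7 CPM in Dounce-TRAP and at 23.3, 29.4, 21.4 and 26.2 CPM in Dounce-Input. The ranges did not overlap, although the highest TRAP library came close to the lowest Input library, and without Dounce replicate 1 the change was under 2-fold. *Nfkbid* was at -0.71 ± 0.48 (FDR = 0.191), while *Tnfaip3* was 3.10 ± 0.23 higher in TRAP with TMM and lower on the microglial scale (-1.11). Dounce-Input held 6782 to 7707 CPM of the 10 markers of other myeloid and blood cells, mostly the globin transcript *Hbb-bs* and including the neutrophil transcripts *S100a8* and *S100a9*, and Dounce-TRAP held 696 to 1560 CPM of them. Their part in the *Nfkbiz* of Dounce-Input was not tested.

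**Figure D5:**
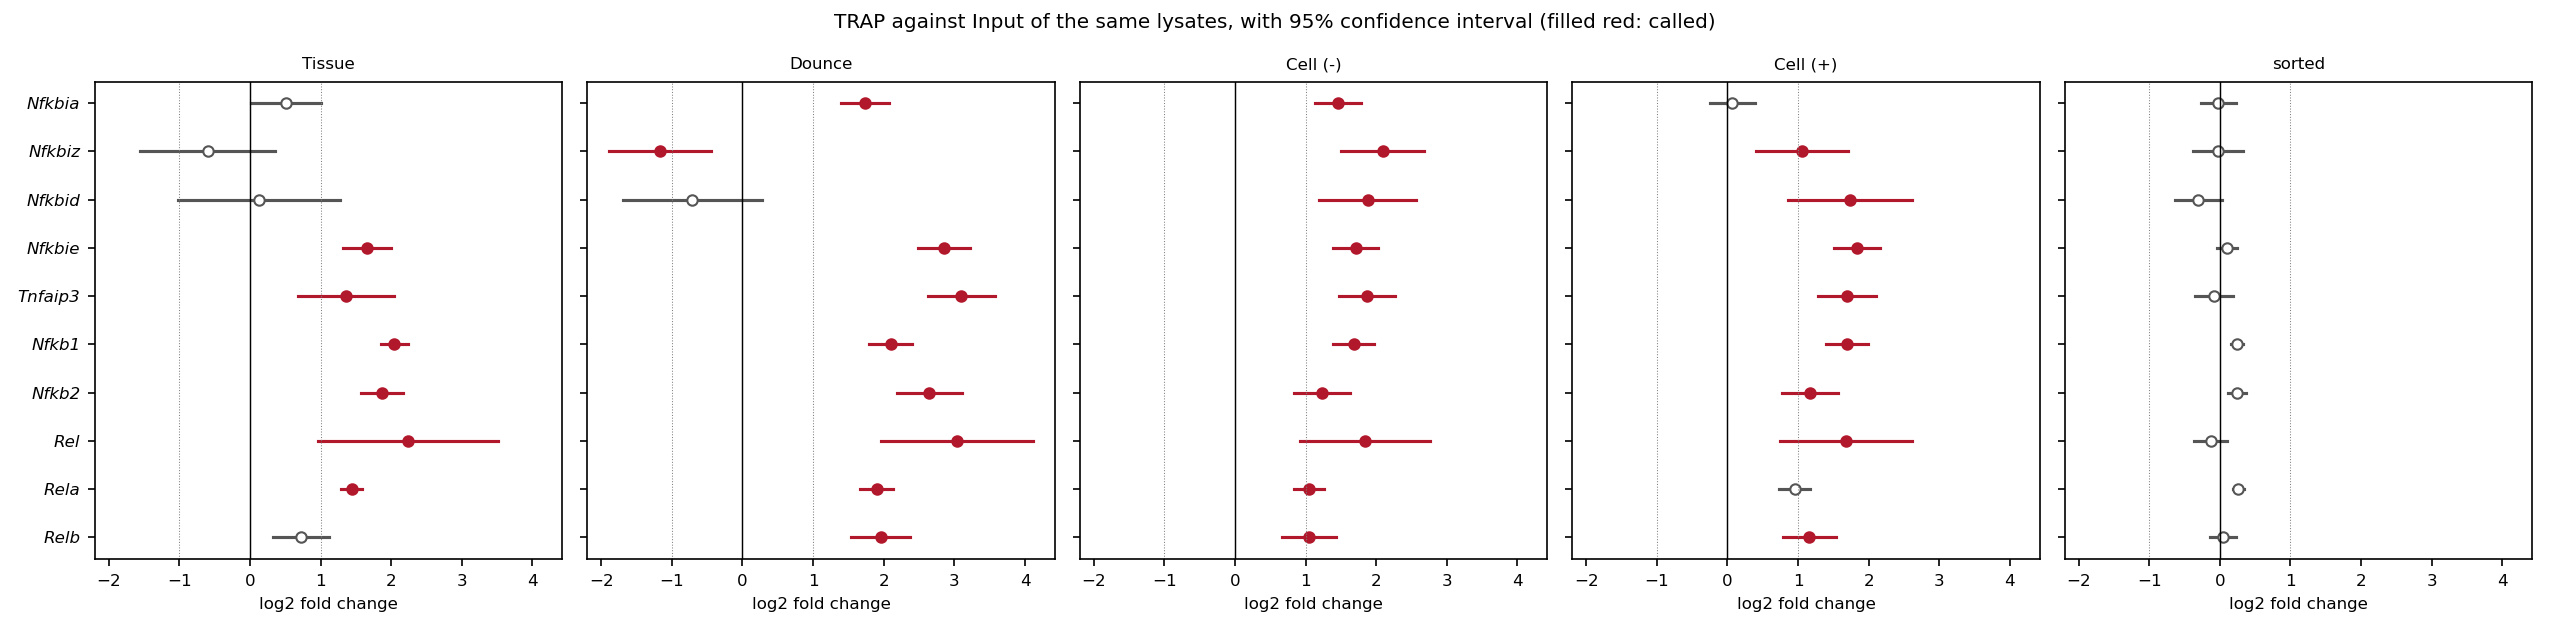
Log2 fold change of TRAP against Input for each member, with 95% confidence intervals and TMM scaling. Tissue and the sorted cells are of the sort comparison, and Dounce and the suspensions without and with inhibitors are of the preparation comparison. Most members lie above 0 outside the sorted cells, while *Nfkbiz* lies below 0 in Tissue and in Dounce, and *Nfkbid* does so in Dounce. In the sorted cells all members lie near 0. On the microglial scale, which is not drawn, no member was called higher in TRAP.

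To compare levels between genes, CPM was divided by the length in kilobases of the principal GENCODE transcript. The coverage bias that the authors report was not corrected. Per kilobase, *Nfkbia* had the highest median of the 10 members in every TRAP group of the preparation comparison and *Rel* the lowest. The median of *Nfkbia* was 38.6 CPM per kb in Tissue-TRAP, 403 in Cell-TRAP (-) Inhibitors, 88.0 in Cell-TRAP (+) Inhibitors and 80.3 in Dounce-TRAP. In Cell-TRAP (-) Inhibitors the next were *Rela* (88.7), *Tnfaip3* (85.5) and *Nfkbiz* (80.2), whose ranges overlapped.

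In Cell-TRAP (+) Inhibitors *Rela* (83.4, range 79.6 to 85.5) lay within the range of *Nfkbia* (77.9 to 97.7), so these 2 did not differ beyond their spread, and *Tnfaip3* (14.9), *Nfkbiz* (4.07) and *Nfkbid* (3.47) stood seventh to ninth. In Tissue-TRAP the order had the same 3 leading genes as with inhibitors, *Nfkbia*, *Rela* (28.5) and *Nfkb1* (11.8), and *Nfkbid* (0.808) and *Nfkbiz* (0.756) overlapped near the end. *Rel* was at 0.0417 CPM per kb there, from few counts.

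The rest of the pathway was followed in lists of genes. Of the other IkB genes, *Nfkbib* (-0.19 ± 0.15) and *Bcl3* (0.10 ± 0.37) were not called in Cell-TRAP (+) against (-) Inhibitors, nor by DESeq2 or at an unadjusted p below 0.05. Of 27 genes tested for the IkB kinase complex and its upstream adaptors, 0 were called by either tool, with 4 at an unadjusted p below 0.05, and their median log2 fold change was 0.01 beside -0.03 over all genes. Among 13 other brakes on NF-kB, 1 was lower, *Zc3h12a* (-1.20 ± 0.30, FDR = 0.0554), which encodes the RNase Regnase-1 that degrades cytokine mRNA, and the median was -0.15.

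Of 27 target genes of NF-kB tested, 14 were lower with inhibitors in TRAP and none was higher, with a median of -1.63. Of all genes, 0.632% were called lower there. In Input, 10 of 26 were lower, beside 0.311% of all genes. The list was chosen with earlier results of these data known, so these counts are no independent support. The target genes named by size were *Il1b* (-4.83 ± 0.53), *Ccl4* (-4.80 ± 0.41), *Ccl2* (-4.79 ± 0.46), *Ccl3* (-4.29 ± 0.37) and *Tnf* (-4.28 ± 0.43), all cytokine or chemokine genes, and *Cxcl2*, which had 55 to 365 counts per library without and 0 to 1 with inhibitors. *Il1b* had 496 to 2373 counts per library without and 20 to 68 with inhibitors. DESeq2 called 11 of the 27 targets. No gene of the 15 microglial markers was called in this comparison by either tool, and 1 of them had an unadjusted p below 0.05. Among the astrocytic, oligodendrocytic, neuronal, endothelial and blood cell markers, 1 gene was called, the globin gene *Hbb-bs* (-2.08 log2, FDR = 0.0640, edgeR), at 30.7 to 252 CPM without and 12.97 to 42.3 CPM with inhibitors.

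In Dounce-TRAP against Cell-TRAP (-) Inhibitors, 16 of the 27 target genes were lower and none higher, with a median of -2.20. Of all genes, 8.02% were called lower there. Of the 27 kinase and adaptor genes, 0 were called by edgeR or DESeq2, with 12 at an unadjusted p below 0.05. *Bcl3*, which encodes a nuclear IkB and is named after its value was seen, was lower there (-1.54 ± 0.43) and *Nfkbib* was at -0.88 ± 0.16. The median of the 10 members was -0.92 beside -0.01 over all genes. The 7 neuronal markers were all higher in Dounce-TRAP, and 6 of 7 endothelial and mural markers were lower, and their part in the changes of the members was not tested.

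In the sorted groups against Cell-TRAP, *Il1b* (1.33) was called higher and *Traf1* (-2.03) lower among 27 target genes, both named after their values were seen, and none of 27 kinase and adaptor genes, 14 other brakes or 2 other IkB genes was called by edgeR or DESeq2, with 10, 6 and 1 at an unadjusted p below 0.05.

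Across the 32 libraries of the preparation comparison, the genes whose log2(CPM + 1) followed *Nfkbia* most closely were *Btg2* (Pearson r = 0.971), *Zfp36* (0.970), *Tsc22d3* (0.962), *Klf6* (0.959) and *Ccrl2* (0.959). Those that followed *Nfkbiz* were *Nfkbid* (0.968), *Il1b* (0.927), *Dusp1* (0.906), *Cxcl2* (0.897) and *Tnf* (0.888). These are descriptions over libraries that share mice and lysates and fall into 8 groups, so they largely repeat the pattern of the group means.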

How the data were processed

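RNA of 80 libraries (48 in the sort and 32 in the preparation comparison) was sequenced from strand-specific poly(A) libraries. The authors trimmed, aligned to mm10 and removed duplicate reads in Strand NGS, and deposited expected counts per gene, of which 33.2% (sort) and 20.8% (preparation) are whole, after a filter for low counts. They also deposited log2 values normalized with DESeq2 and set relative to the Tissue-Input median, which entered no test. Duplicate removal without molecular identifiers can lower the counts of abundant transcripts.

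Expected counts were rounded. A gene entered a fit when some group of it held over 5 counts of the gene in each library, and was tested with the edgeR quasi-likelihood test (edgeR 4.0.16, R 4.3.3) after TMM scaling, on all libraries of one fraction of one comparison. Joint fits of both fractions gave TRAP against Input and the difference of the inhibitor effects. The scripts were tested on simulated data. CPM values carry a depth of 2471448 to 20168116 counts, so 1 count is worth more in the shallow Dounce-TRAP libraries. Alternatives were DESeq2 1.42.0 (size factors and test), scaling to the microglial markers, no filter and a filter of 10 counts in every sample, only the groups compared, replicate blocks, each library left out, an earlier deposited table (24 libraries), and thinning to the smallest total, which was chosen after seeing the data. An overlap of ranges is given as observed, with no test.

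Groups came from the sample labels. Mouse numbers in the labels tie the suspensions with and without inhibitors to the same 4 mice, Tissue and Cell of the sort comparison to the same 4 mice, and Input and TRAP to 1 lysate. Deviations from the group means correlated with a median of 0.123 over 8 pairs of suspensions, 0.117 over 8 pairs of Tissue and Cell, and 0.38 over 40 pairs of Input and TRAP, where 37 were over 0.1 and the lowest 2, both in autoMACS, were -0.152 and -0.199.

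The members and the lists were chosen with earlier results of these data known, so they support no claim that such genes were predicted. Named genes were all 10 members, at most 6 called genes per list in Cell-TRAP (+) against (-) Inhibitors by size of the fold change, and the 5 genes most correlated with *Nfkbia* and with *Nfkbiz*. *Tnip3* (preparation comparison), *Il12b*, *Acta2* and *Cd3e* (sort comparison) were not used here. Promoters are RefSeq windows of GRCm38.p6, and transcript lengths are of GENCODE principal transcripts on mm10.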

Additional observations from a re-analysis of the deposited data

Results flagged for a closer look

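Of 180 combinations of a member and a group of 4 or 5 libraries, 14 held a library far from the rest of its group by Dixon's criterion, where chance gives about 1 in 20. In autoMACS-Input replicate 3, *Nfkbia* was at 1410 CPM (next 726), *Nfkbiz* at 951 CPM (next 404.5) and *Tnfaip3* at 974 CPM (next 459.8). That library also had 32850 CPM of summed microglial markers, beside 47270 to 49860 CPM in the other 3, and the part of this in its levels was not tested. Without it the member called among sort methods in Input, *Rel*, was still called.

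*Nfkb1* was lowest in Dounce-TRAP replicate 3, at 125 CPM (next 204), the library with the lowest depth and with no count of *Rel*. *Nfkbid* was highest in Cell-Input (-) Inhibitors replicate 4, at 71.6 CPM (next 34.01). In Tissue-Input of the preparation comparison, *Nfkbia* was highest in replicate 2 (57.7 CPM, next 41.7), *Nfkb1* in replicate 4 (17.3 CPM, next 13.97) and *Relb* in replicate 1 (15.0 CPM, next 9.26).

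In Tissue-Input of the sort comparison, *Nfkbia* was highest in replicate 2 (60.8 CPM, next 40.2), *Nfkbid* was highest in replicate 1 (1.87 CPM, next 1.59) and *Nfkb1* was lowest in replicate 1 (11.1 CPM, next 14.1). *Nfkbie* was lowest in Cell-Input replicate 4 (7.58 CPM, next 8.94), *Nfkb2* was highest in autoMACS-TRAP replicate 3 (68.5 CPM, next 53.8) and *Relb* was lowest in Tyto-Input replicate 4 (21.8 CPM, next 36.3).

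The inhibitor effect on *Nfkbia* differed between TRAP and Input, by -1.38 on the log2 scale, in a test of the difference itself. The part of other cells of the Input in it was not tested.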

How the results depend on the processing

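Of 376 counts of members called, 356 stayed within 1.5 times, but these counts add both directions, so a reversal can pass as unchanged. In Dounce-Input against Tissue-Input, for instance, 6 called higher with TMM became 6 called lower on the microglial scale. Of 2400 values of single members recomputed, 2264 kept their direction and side of the call rule, 29 lost the call and 15 gained it. Another 40 that had a call in at least 1 of the fits changed direction, and 52 changed sign without a call in either fit. All 40 came with the microglial scale. Of the 52, with values of at most 0.33 (log2), 32 came from leaving out a library, such as *Rel* in Dounce-TRAP against Cell-TRAP (+) Inhibitors without Dounce-TRAP replicate 3 (-0.15 to 0.23), 10 from the microglial scale, 4 from thinning and 4 from DESeq2. The 10 members are few, and *Rel* (0 to 14 counts per Tissue library), *Nfkbid* and *Nfkbiz* are limited by depth in Tissue and Dounce.

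On the microglial scale, log2 fold changes of Cell-TRAP against Tissue-TRAP in the sort comparison were -0.41 (*Nfkbie*), -0.41 (*Nfkb2*), -0.53 (*Rela*) and -1.49 (*Relb*), and *Relb* was at -3.39 in Cell-Input against Tissue-Input and *Rela* at -1.54 in the sorted groups against Cell-Input. Against Tissue-TRAP in the preparation comparison, Cell (-) Inhibitors gave -0.071 (*Nfkb2*), -0.57 (*Rela*) and -0.69 (*Relb*), Cell (+) Inhibitors -1.15 (*Nfkbia*), -0.024 (*Nfkbid*), -0.047 (*Nfkbie*), -0.32 (*Nfkb2*), -0.75 (*Rela*) and -0.63 (*Relb*), and Dounce -1.08 (*Nfkbia*), -0.29 (*Nfkbiz*), -0.62 (*Nfkbid*), -0.14 (*Nfkbie*), -0.092 (*Nfkb1*), -0.86 (*Nfkb2*), -1.36 (*Rela*) and -1.003 (*Relb*).
Against Tissue-Input, *Relb* was at -3.47 without inhibitors, *Nfkbiz* at -3.92 and *Relb* at -3.60 with them, and in Dounce *Nfkbia* was at -2.47, *Nfkbiz* at -0.15 and *Nfkbid* at -0.55. In Dounce-Input against Cell-Input (-) Inhibitors *Nfkb1* was at 1.22 and *Nfkbiz* at 0.20. For TRAP against Input, *Nfkb1* was at -2.46 and *Rel* at -2.18 in Tissue, *Nfkbiz* at -0.40 and *Relb* at -1.89 in Cell, *Nfkbia* at -0.87 and *Nfkbiz* at -0.21 in Cell (-) Inhibitors, *Nfkbia* at -2.16 and *Nfkbiz* at -1.18 in Cell (+) Inhibitors, and *Tnfaip3* at -1.11 in Dounce.

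Counts of members called under the microglial scale were 0 in place of 1 for the sorted groups against Cell-TRAP, 3 in place of 10 for the sorted groups against Cell-Input, 5 in place of 10 for Cell-TRAP (-) Inhibitors, 2 in place of 10 for Cell-TRAP (+) Inhibitors and 4 in place of 8 for Dounce-TRAP against Tissue-TRAP, 2 in place of 9 for Dounce-Input against Cell-Input (-) Inhibitors, and, for TRAP against Input, 10 lower in TRAP in place of 6 higher in Tissue, 4 lower in place of 9 higher in Cell, 3 lower in place of 10 higher in Cell (-) Inhibitors and 5 lower in place of 8 higher in Cell (+) Inhibitors. With 10 counts in every sample, which leaves fewer genes tested, the count was 0 in place of 1 for the sorted groups against Cell-TRAP and for both tests among sort methods, 5 in place of 8 for Dounce-TRAP and 3 in place of 6 for Dounce-Input against Tissue.

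Leaving out 1 library, the counts ranged from 4 to 4 for the inhibitors in TRAP and 3 to 3 in Input, 4 to 5 for Dounce-TRAP against Cell-TRAP (-) Inhibitors, 0 to 1 against Cell-TRAP (+) Inhibitors and 7 to 9 against Tissue-TRAP, 0 to 1 for the sorted groups against Cell-TRAP and for the sort methods in TRAP, 1 to 1 for the sort methods in Input, 10 to 10 for the sorted groups against Cell-Input, and 5 to 6 for TRAP against Input in Tissue. The count of 1 against Cell-TRAP (+) Inhibitors was *Nfkbiz* without Dounce-TRAP replicate 3, and the counts of 0 came without Cell-TRAP replicate 1 (*Relb*), FACSAria-TRAP replicate 1 and autoMACS-TRAP replicate 4 (*Rel*).

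With the lysate as a replicate block, 2 members in place of 1 differed in the inhibitor effect between fractions (*Nfkbiz* at -1.01), and the replicate blocks changed no other call of a member. No block was run for the sorted groups against Cell or among the sort methods. Over all genes the block moved the calls from 94 to 150 for the inhibitors in TRAP and from 23 to 42 for the difference of the effects, which was 41 with DESeq2, 13 on the microglial scale and 15 without Cell (+) Inhibitors replicate 4. With the filter of 10 counts, genes called fell from 49 to 32 for the inhibitors in Input, and among sort methods from 624 to 173 in TRAP and from 1169 to 304 in Input, where DESeq2 called 1148 and 1917. DESeq2 size factors moved the median of all genes by at most -0.41, for TRAP against Input in Cell, and reversed no called member. Thinning the preparation libraries to the smallest total, chosen after seeing the data, lost 2 and gained 2 calls. The cause of these changes was not tested.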
